A study of Homo sapiens with 12 samples.

Results

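The comparison described here sets HEK293T cells given CP25 against cells given vehicle, at the moment when transcription was to be blocked, so it reads the steady-state level of each poly(A) transcript before any decay period. Its members were chosen by their labels: the 3 CP25 and 3 vehicle libraries taken at 0 h, which are 6 of the 12 libraries of the series, and in their table every gene whose FPKM averaged 1 or more across those 6 libraries. These were 12365 of 23615 genes. FPKM scales a gene's fragments to transcript length and library size. HEK293T is an established human line from embryonic kidney in which SV40 large T antigen is stably expressed, and its passages were 10 to 20. All cells were grown to 70% confluency. The CP25 group then received 2 µM CP25, which the labels describe as a macrocycle that inhibits the decapping enzyme Dcp2, for 18 h, and the vehicle group received the same volume of peptide storage buffer. Actinomycin D, which blocks transcription, was used at 5 µg/mL, and the RNA of these 6 libraries was taken at 0 h of that block. The other 6 libraries, taken after 2 h, serve below only for values set side by side. The labels number the replicates 1 to 3 without saying whether they were separate cultures. A p-value here therefore measures only the spread between libraries, which may be technical.

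Most mRNAs carry a methylated guanosine cap at the 5′ end and a poly(A) tail at the 3′ end. In the main decay route the tail is shortened first, after which the LSM1-7 ring, PATL1 and the DDX6 helicase gather on the transcript. DCP2, a Nudix hydrolase held by DCP1A or DCP1B and EDC4, then removes the cap, and the exonuclease XRN1 degrades the body from its 5′ end. A parallel route runs from the 3′ end through the RNA exosome, and DCPS clears the cap that remains. A steady-state level reflects both synthesis and decay, and these libraries do not separate them.

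No gene differed between CP25 and vehicle beyond the spread between libraries after correction. In limma's moderated test on log2(FPKM + 1), 0 of 12365 genes had an adjusted p under 0.05, a background of 0%. At an unadjusted p under 0.05 there were 43 genes higher in CP25 (0.348%) and 45 lower (0.364%). Those 88 genes (0.712%) compare with the 618 that the threshold gives by its definition when nothing differs and genes are independent; with the replicate number as a block, described below, the count was 857, above that figure. In the authors' deposited table, the comparison of the same groups had 88 of the genes tested here at p under 0.05, and 0 after Benjamini-Hochberg adjustment of those p-values. The equal counts do not stand for the same genes: FKBP2, for instance, had a limma p of 0.007 and an authors' p of 0.142. Without the library CP25 1, limma had 203 genes at an unadjusted p under 0.05 and called 4, all small RNA genes. The direction split at this threshold depended on scaling, where each fit gave its own list of genes. There were 55 higher and 33 lower after centring each library on its median, and 70 higher and 41 lower (111 genes) after quantile normalization.

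A missing call does not show that levels were alike, so the 95% confidence interval of each log2 change was read instead. The interval lay inside a 1.5-fold change of FPKM + 1 in either direction for 95.6% of all genes tested. For a 2-fold change this share was 98.5%. Precision followed the level of expression. Inside 1.5-fold lay 89.9% of the 3090 genes with a mean of 1 to 5 FPKM, 96.8% of the 4834 genes at 5 to 20 FPKM and 98.3% of the 4441 genes at 20 FPKM or more. On this scale the added 1 draws low genes toward 0; with a pseudocount of 0.1, the share at 1 to 5 FPKM was 68.7%. The exact fold excluded for a low gene thus depends on the pseudocount.

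**Figure D1:**
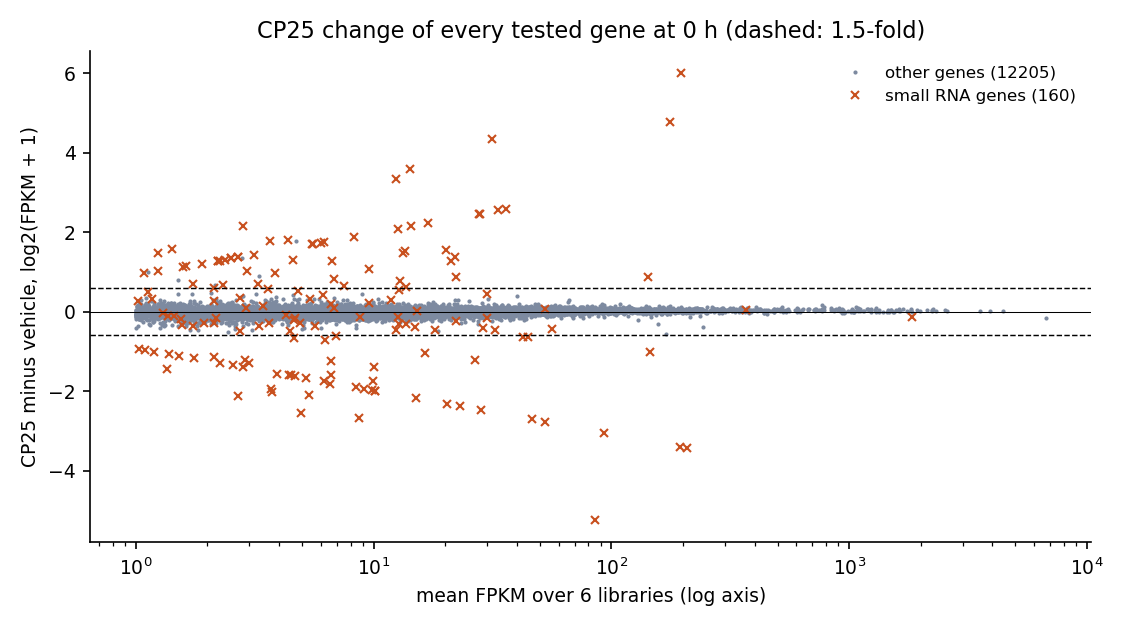
CP25 minus vehicle difference in log2(FPKM + 1), vertical axis, against mean FPKM over the 6 libraries, horizontal log axis, 1 point per tested gene, with crosses for the 160 small RNA genes and dashed lines at a 1.5-fold change. Of the 12205 other genes, 6 lie beyond the dashed lines, whereas 109 of the 160 small RNA genes do.

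The plot of change against level shows where wide differences lay. Small RNA genes were set by symbol: snoRNAs, microRNAs and similar short transcripts, together with some microRNA host genes such as MIR17HG. Outside this class, 882 of 12205 genes differed by more than 1.1-fold of FPKM + 1, 6 by more than 1.5-fold and 2 by more than 2-fold. The 6 were C1orf151-NBL1, COMMD3-BMI1, H3F3A, HLTF-AS1, INO80B-WBP1 and RNA5SP244, named after their values were seen; 3 of them are read-through loci whose reads are shared with other genes. Small RNA genes varied widely within groups. Their median standard deviation between libraries of 1 group was 1.62 on the log2 scale, against 0.11 for other genes, and 129 of the 160 were at 0 in at least 1 library. SNORD79, a C/D box snoRNA, was listed at 144, 370 and 0 FPKM in the vehicle libraries and at 0 in all 3 CP25 libraries. SNORD50A, another snoRNA of that class, was at 0 in all 3 vehicle libraries and at 0, 885 and 294 FPKM in CP25. Both genes were at 0 in at least 1 library of each group, so their libraries overlap. MIR5047, a microRNA gene named after its values were seen, was steadier and had the smallest unadjusted p of all genes tested. It was at 190, 211 and 181 FPKM in vehicle and 95.1, 114 and 80.1 FPKM in CP25, lower in CP25 within each number and with no overlap. Its log2 difference was −1.01 (95% interval −1.32 to −0.70), with a limma adjusted p of 1.00, or 0.0533 with the replicate number as a block. In the 2 h libraries it was at 92.2, 19.1 and 146 FPKM in vehicle and 57.9, 101 and 113 FPKM in CP25, which overlap. The libraries are of poly(A) RNA. Whether reads listed for MIR5047 came from the microRNA or from a longer transcript was not tested.

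The target of the compound came first in the gene groups. DCP2 mRNA stood at 23.1, 22.2 and 22.3 FPKM in vehicle libraries 1, 2 and 3 and at 22.1, 21.5 and 21.8 FPKM in CP25 libraries 1, 2 and 3. The CP25 libraries all lay just below the vehicle libraries, 21.8 ± 0.321 against 22.5 ± 0.465 FPKM (SD, n = 3), a difference of 3.20% of the vehicle mean. The log2 difference was −0.04 with a 95% interval of −0.16 to 0.07, and limma's adjusted p was 1.00. Libraries that do not overlap with CP25 lower occurred in 352 genes of the table, 2.85% of all tested. CP25 acts on the protein, so its mRNA level is no check of inhibition.

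The 12 genes of decapping were all measured and 0 were called. Their CP25 minus vehicle differences were positive for 3 and negative for 9, with a median of −0.02 against −0.00 over all 12365 genes, of which 47.5% were positive. DCP1A, the cofactor that activates DCP2, had the lowest difference (−0.13), with 12.6, 13.0 and 12.5 FPKM in vehicle and 12.7, 10.98 and 10.9 FPKM in CP25. CP25 library 1 lay within the vehicle range for DCP1A and libraries 2 and 3 lay below it. Its paralog DCP1B was at 9.66, 11.2 and 10.3 FPKM in vehicle and at 9.11, 10.5 and 9.89 FPKM in CP25, overlapping throughout. EDC4, the scaffold between DCP1 and DCP2, ranged from 24.3 to 28.3 FPKM and the enhancer EDC3 from 22.3 to 25.4 FPKM over the 6 libraries. The helicase DDX6 was at 62.1, 60.9 and 60.9 FPKM in vehicle and 60.4, 59.9 and 61.8 FPKM in CP25. PATL1, LSM14A, LSM14B, EIF4ENIF1, PNRC1 and PNRC2, which bridge decapping to repression or to nonsense-mediated decay, overlapped between groups, with log2 differences between −0.06 and 0.05. For all 12 genes the interval excluded a 1.5-fold change of FPKM + 1.

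**Figure D2:**
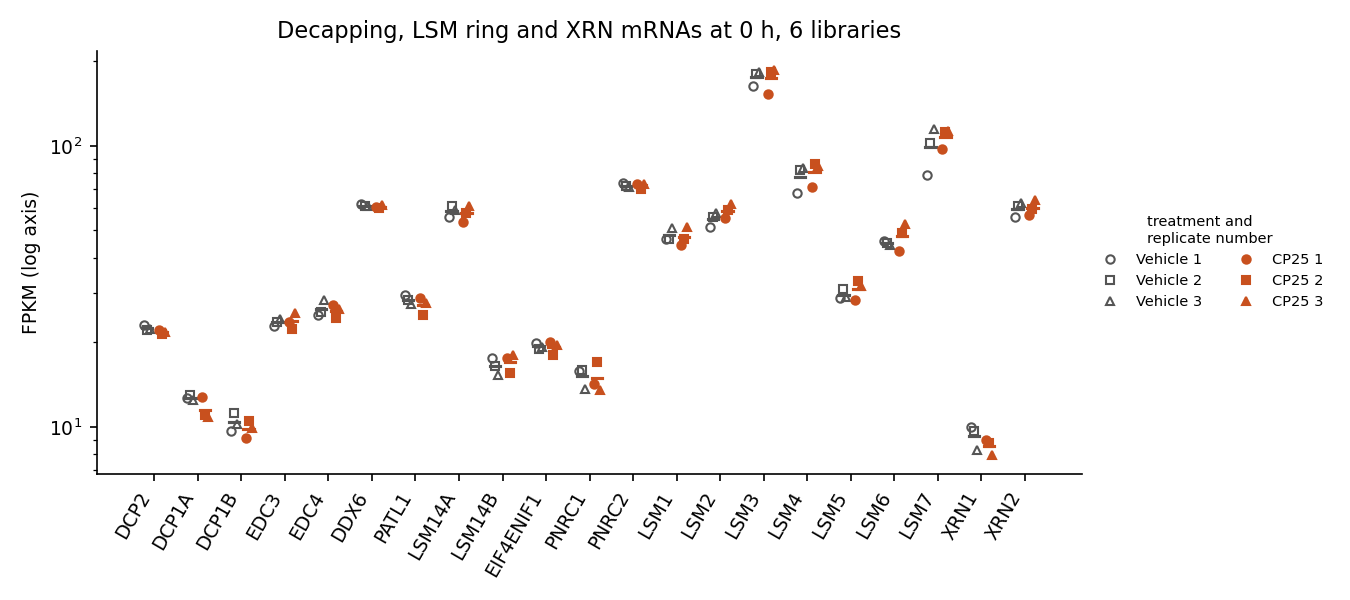
FPKM on a log axis of the 12 decapping genes and of the 9 genes of the LSM1-7 ring and the 5′ to 3′ exonucleases, 1 point per library, open for vehicle and filled for CP25, with the replicate number as the marker shape and a bar at each mean. Vehicle and CP25 points of each gene sit at nearly the same height; DCP2 is the gene whose points do not overlap.

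Of the 9 genes of the ring and the exonucleases, 6 had positive differences and 0 were called, with a median of 0.06. XRN1, the cytoplasmic exonuclease that acts after decapping, was at 9.95, 9.69 and 8.26 FPKM in vehicle and 8.96, 8.79 and 7.95 FPKM in CP25. Within each replicate number the CP25 library of XRN1 was the lower one, by 0.14, 0.13 and 0.05 on the log2 scale, while the groups overlap as a whole. The nuclear exonuclease XRN2 differed by 0.01 and overlapped. LSM2, shared by the decay and splicing rings, was at 51.5, 55.9 and 57.7 FPKM in vehicle and 55.2, 59.3 and 61.9 FPKM in CP25, higher in CP25 within each number and overlapping as a group. LSM7 had the highest difference (0.13), from 78.9, 103 and 115 FPKM to 97.3, 112 and 113 FPKM, with vehicle library 1 the lowest. Without that vehicle library, the median of these 9 genes turned to −0.03. All 9 intervals excluded a 1.5-fold change of FPKM + 1.

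Enzymes that could act on caps in place of DCP2 showed no difference beyond their error. Of 13 other Nudix and scavenger genes, 9 had positive differences, with a median of 0.01, and 0 were called. NUDT16, which can decap RNA in cells, was at 12.4, 12.4 and 11.2 FPKM in vehicle and 11.9, 12.8 and 10.8 FPKM in CP25. NUDT3 was at 18.3, 26.3 and 28.0 FPKM and 21.6, 25.5 and 29.7 FPKM, low in number 1 of both groups. The scavenger DCPS was at 12.6, 15.0 and 17.3 FPKM in vehicle and 14.0, 14.5 and 17.8 FPKM in CP25. All 13 genes overlapped between groups. Their extremes were FHIT at −0.13 and NUDT4 at 0.10, and all 13 intervals excluded a 1.5-fold change.

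The remaining decay machinery gave small differences in both directions. Of 21 deadenylase and poly(A)-binding genes, 6 were positive, with a median of −0.03, and of 17 exosome and SKI genes, 11 were positive, with a median of 0.02. CNOT4, a ubiquitin ligase bound to the CCR4-NOT complex, was the 1 gene of these whose libraries did not overlap. Over all genes tested, 2.85% had CP25 lower without overlap. CNOT4 was at 16.9, 17.02 and 17.3 FPKM in vehicle and 16.5, 15.7 and 16.3 FPKM in CP25. PAN2, the catalytic subunit of the deadenylase PAN2-PAN3, was at 16.9, 13.4 and 12.2 FPKM in vehicle and 15.5, 12.6 and 10.4 FPKM in CP25, lower within each number but overlapping. Of 15 nonsense-mediated decay factors, 6 were positive (median −0.01). The kinase SMG1 had the lowest value, at 22.8, 14.4 and 15.1 FPKM in vehicle and 16.5, 14.2 and 12.5 FPKM in CP25, where vehicle library 1 stood alone above the rest. Of 29 transcripts reported elsewhere as targets of nonsense-mediated decay, 13 were positive (median −0.01), and the host gene GAS5 read 78.5, 96.4 and 77.2 FPKM against 83.1, 102 and 75.6 FPKM. Of 20 capping and cap-binding genes, 10 were positive (median 0.00). EIF4G3, a scaffold of the cap-binding complex, was the 1 gene of these 20 that did not overlap, beside the same 2.85%. It was at 40.9, 40.3 and 40.4 FPKM in vehicle and 37.7, 37.7 and 38.0 FPKM in CP25 (log2 difference −0.10). No gene of these 5 lists was called.

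Of the reported Dcp2 substrates considered here, only EXOSC4 passed the filter. Neither it nor the transcripts known for fast turnover showed a difference beyond the spread between libraries. EXOSC4, an exosome subunit whose mRNA is a reported Dcp2 substrate, was at 25.5, 31.2 and 41.3 FPKM in vehicle and 29.5, 34.2 and 37.5 FPKM in CP25. Its spread within vehicle exceeded the difference of 0.06, and the groups overlap. IRF7, another reported substrate, was below the filter, at 0, 0.0280 and 0 FPKM in vehicle and 0.0247, 0.0244 and 0.0258 FPKM in CP25, so no difference was detectable at this depth. Of 43 immediate-early and AU-rich genes, 33 passed the filter, 18 of them positive, with a median of 0.00 and 0 called. FOS, FOSB, EGR1, EGR2 and EGR3 were among the 10 below it. MYC was at 53.2, 74.5 and 67.2 FPKM in vehicle and 55.3, 79.1 and 61.5 FPKM in CP25, and JUN at 40.8, 58.5 and 45.0 FPKM and 47.4, 61.9 and 44.9 FPKM. Both were highest in replicate number 2 of either group. The immediate-early gene IER2 was at 11.4, 12.1 and 14.0 FPKM in vehicle and 11.99, 12.5 and 12.9 FPKM in CP25. GAPDH, an abundant glycolytic mRNA often used as a reference, was at 1384, 2102 and 1906 FPKM in vehicle and 1455, 2174 and 1868 FPKM in CP25, lowest in number 1 of both groups.

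The 12 genes per direction with the smallest unadjusted p are given as values, since none passed the correction (limma adjusted p of 1.00 for each). Their libraries did not overlap, which the ranking by p favours; across the table this held for 152 genes with CP25 higher (1.23%) and 352 with CP25 lower (2.85%). That split depended on scaling, with 254 and 252 genes after median centring and 248 and 293 after quantile normalization. Higher in CP25 by these values were FKBP2, LENG1, NR2C2AP, SLC35G2, MPZL3, IFI6, EBAG9, CCDC134, ICAM3, TNFRSF12A, PHKG1 and NPTX2, by 0.17 to 0.33 on the log2 scale. FKBP2, a prolyl isomerase of the endoplasmic reticulum, was at 37.6, 38.7 and 37.7 FPKM in vehicle and 44.1, 43.9 and 42.3 FPKM in CP25 (log2 difference 0.19 ± 0.05 SE). NR2C2AP, a partner of a nuclear receptor, was at 15.2, 16.4 and 16.9 FPKM and 17.9, 19.7 and 20.6 FPKM (0.25 ± 0.07). The interferon-induced gene IFI6 was at 6.26, 7.03 and 7.33 FPKM and 9.49, 8.78 and 7.63 FPKM (0.29 ± 0.09), with CP25 library 3 close to the vehicle range. TNFRSF12A, the TWEAK receptor, was at 6.12, 4.57 and 4.75 FPKM in vehicle and 6.13, 7.10 and 6.64 FPKM in CP25, where library 1 of the groups nearly met.

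Lower in CP25 by these values were UFSP1, RPS26P11, TEFM, TUBG2, ZNF577, COMMD1, INO80B, SAMD15, MAST4, ZNF177, RABGAP1L and ZNF724P, with log2 differences of −0.47 to −0.18. COMMD1, known from copper handling and endosomal sorting, was at 27.4, 30.7 and 33.5 FPKM in vehicle and 22.1, 26.2 and 25.02 FPKM in CP25 (−0.31 ± 0.09 SE). TEFM, the elongation factor of mitochondrial transcription, was at 14.2, 13.5 and 13.9 FPKM and 12.2, 12.1 and 12.1 FPKM (−0.18 ± 0.05). TUBG2, a gamma-tubulin, was at 6.93, 6.83 and 7.004 FPKM in vehicle and 5.33, 6.21 and 5.42 FPKM in CP25. RPS26P11 is a pseudogene of RPS26 and INO80B is joined by a read-through locus, so reads of either could be split with a near copy. RPS26 itself was at 409, 455 and 459 FPKM in vehicle and 393, 455 and 490 FPKM in CP25, with no such difference. All 24 genes kept their direction in each alternative in which they were fitted, none with an adjusted p under 0.05. As their libraries did not overlap, only the 2 scalings could have reversed a sign, so the other alternatives were no test of direction. In the separate libraries taken at 2 h, 21 of the 24 were tested, and 7 of these (33.3%) had a difference of the same sign as at 0 h, beside 44.5% of the 11641 genes tested at both times. NR2C2AP, for instance, differed by 0.25 at 0 h and by −0.19 at 2 h.

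Genes with wide differences at a mean of 5 FPKM or more were variable within groups. C2orf76 was at 3.61, 5.75 and 5.22 FPKM in vehicle and 5.11, 7.79 and 6.09 FPKM in CP25 (log2 difference 0.33 ± 0.18 SE), overlapping as groups and higher in CP25 within each number. C4orf48 (0.32) also overlapped. RPL21, a ribosomal protein gene with many pseudogene copies that make its value uncertain, was at 213, 147 and 250 FPKM in vehicle and 106, 148 and 157 FPKM in CP25 (−0.55 ± 0.22). MT1X, one of several near-identical metallothionein genes, was at 16.8, 20.0 and 29.5 FPKM in vehicle and 18.3, 11.9 and 15.4 FPKM in CP25 (−0.49 ± 0.22). Both overlapped between groups. In the 2 h libraries MT1X was at 17.1, 13.8 and 13.7 FPKM in vehicle and 9.28, 9.24 and 12.4 FPKM in CP25, which do not overlap. PFN1P2, a profilin pseudogene, had the third lowest value (−0.41).

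**Figure D3:**
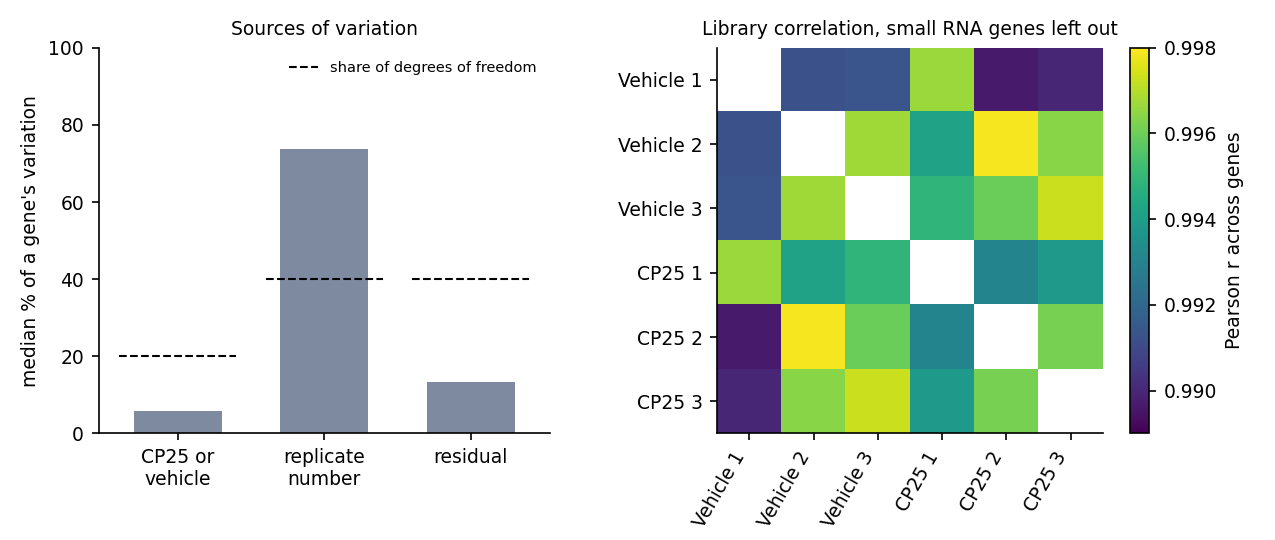
Left, median share of a gene's variation over the 6 libraries (percent, vertical axis) assigned to CP25 or vehicle, to replicate number and to the residual, with dashed lines at each term's share of the degrees of freedom. With no effect, a median need not lie at its line. Right, Pearson correlation across 12205 genes for each pair of libraries. Replicate number takes a median of 73.7%, and each CP25 library correlates best with the vehicle library of its own number.

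The larger pattern in these 6 libraries followed the replicate number rather than the treatment. Outside small RNA genes, the number took a median of 73.7% of a gene's variation, treatment 5.79% and the residual 13.4%. Of the variation summed over these genes, the number took 72.8%, treatment 10.6% and the residual 16.6%. Their shares of the degrees of freedom were 40%, 20% and 40%. With no effect, a median share need not equal the share of the degrees of freedom. Each CP25 library correlated best with the vehicle library of the same number (Pearson r across genes of 0.997, 0.998 and 0.997; genes are not independent replicates). Vehicle libraries correlated with each other at 0.991 to 0.997. In a limma fit of treatment and number outside small RNA genes, 4118 of 12205 genes (33.7%) had an adjusted p under 0.05 for the number, and with all genes 2834 of 12365 (22.9%). Of the 4118, number 1 stood apart by the larger gap in 3061. Vehicle library 1 had the lowest estimated depth, 13.0 × 10⁶ fragments against 19.1 to 21.9 × 10⁶ in the other 5 libraries. CP25 library 1, at 19.5 × 10⁶, shared its pattern at a higher depth. What the numbers mark is not in the labels, and any part of depth or culture in the pattern was not tested.

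**Figure D4:**
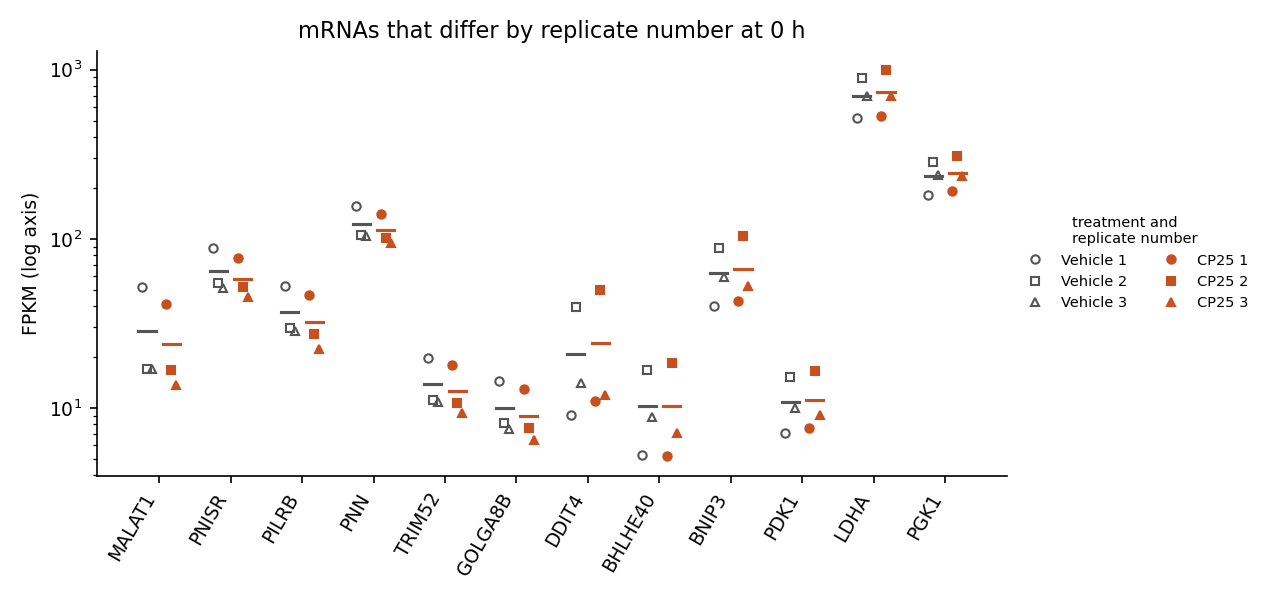
FPKM on a log axis in the 6 libraries for 12 genes that differed by replicate number, open for vehicle and filled for CP25, with the number as the marker shape and a bar at each mean. MALAT1 to GOLGA8B are highest in number 1 and DDIT4 to PGK1 in number 2, in both treatments.

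Genes with strong differences by number, picked after their values were seen, show the pattern. Some were high in number 1. MALAT1, a nuclear long noncoding RNA, was at 51.9, 16.9 and 17.1 FPKM in vehicle and 40.9, 16.7 and 13.7 FPKM in CP25. PNISR, a serine/arginine-rich nuclear protein gene, was at 87.8, 55.0 and 51.3 FPKM and 77.0, 52.0 and 45.1 FPKM. Others were high in number 2, and of the 37 hypoxia and glycolysis genes 33 (89.2%) were called for the number, where all genes outside the small RNA class gave 33.7%. The mTOR inhibitor gene DDIT4 was at 9.05, 39.5 and 14.0 FPKM in vehicle and 10.9, 49.7 and 11.98 FPKM in CP25. The mitophagy receptor BNIP3 was at 40.3, 88.8 and 59.6 FPKM and 42.7, 104 and 52.8 FPKM, and lactate dehydrogenase LDHA at 520, 889 and 701 FPKM and 530, 995 and 699 FPKM. In each of these genes the same number was high in both treatments, so vehicle and CP25 overlap.

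Taking the number as a block narrowed the spread without giving a call. With the block and all genes, limma had 323 genes higher (2.61%) and 534 lower (4.32%) at an unadjusted p under 0.05, together 857 (6.93%) beside the 618 that the threshold gives, and 0 of 12365 called. The smallest adjusted p was 0.0533, for MIR5047. With the block and small RNA genes left out, there were 381 higher (3.12%) and 582 lower (4.77%), together 963 of 12205 (7.89%) beside the 610 that the threshold gives, and 0 called, with a smallest adjusted p of 0.505. The intervals then lay inside a 1.5-fold change for 99.5% of genes. CP25 was higher in all 3 numbers for 1491 genes (12.1%) and lower in all 3 for 2213 (17.9%). This split also moved with scaling, to 2197 and 1680 genes after median centring and 1657 and 1933 after quantile normalization.

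Stress and pathway genes were described list by list, with 0 members called in any list. Of 30 p53 targets, 18 were positive (median 0.02, which turned negative without vehicle library 3 or CP25 library 2). AEN, a p53-induced exonuclease, was at 18.7, 22.7 and 21.4 FPKM in vehicle and 21.5, 25.3 and 23.6 FPKM in CP25, and the cell cycle inhibitor CDKN1A at 7.55, 10.8 and 9.42 FPKM and 9.48, 12.03 and 9.97 FPKM. Both were higher in CP25 within each number and overlapped as groups. The death receptor FAS did not overlap, at 3.95, 4.26 and 4.31 FPKM against 5.22, 4.52 and 4.80 FPKM, while MDM2, the ligase that degrades p53, read 34.7, 31.8 and 32.4 FPKM against 31.9, 30.2 and 31.6 FPKM. With the block, 7 of the 30 (CDKN1A, BAX, FAS, AEN, BTG2, DDB2 and RPS27L) were higher at an unadjusted p under 0.05, where all genes gave 2.61%. Their adjusted p was 0.707 or above. Such counts were not particular to p53 targets. In the same fit 14 of 77 oxidative phosphorylation subunits, 4 of 25 sterol genes and 4 of 27 NRF2 and antioxidant genes were higher. In each of these lists 0 were lower. Of 362 zinc-finger genes, 5 were higher and 32 lower, where all genes gave 4.32% lower. The large T antigen of HEK293T is known to bind p53.

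Other stress lists had medians of 0.01 to 0.03. Of 24 heat-shock chaperone genes 13 were positive (median 0.02), and of 36 genes of endoplasmic reticulum stress and ATF4 19 were positive (median 0.01). The inducible chaperone HSPA1B was at 253, 215 and 201 FPKM in vehicle and 233, 216 and 261 FPKM in CP25. The chaperone HSPA5 of the endoplasmic reticulum was at 234, 205 and 232 FPKM and 226, 192 and 237 FPKM, and both genes overlap. Of 34 interferon and RNA-sensing genes, 19 passed the filter and 12 were positive (median 0.02). IFIH1, a sensor of double-stranded RNA, did not overlap, at 1.38, 1.37 and 1.06 FPKM in vehicle and 1.66, 1.45 and 1.63 FPKM in CP25. OAS1 and OAS2, classical interferon-induced genes, were listed at 0 in every library, and IFNB1, MX1 and RSAD2 were below 0.1 FPKM on average. Of 27 NRF2 and antioxidant genes 21 were positive (median 0.03), among them HMOX1, a heme-degrading enzyme, at 12.5, 12.5 and 14.3 FPKM and 14.1, 13.3 and 15.0 FPKM. Of 37 hypoxia and glycolysis genes 28 were positive (median 0.03).

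**Figure D5:**
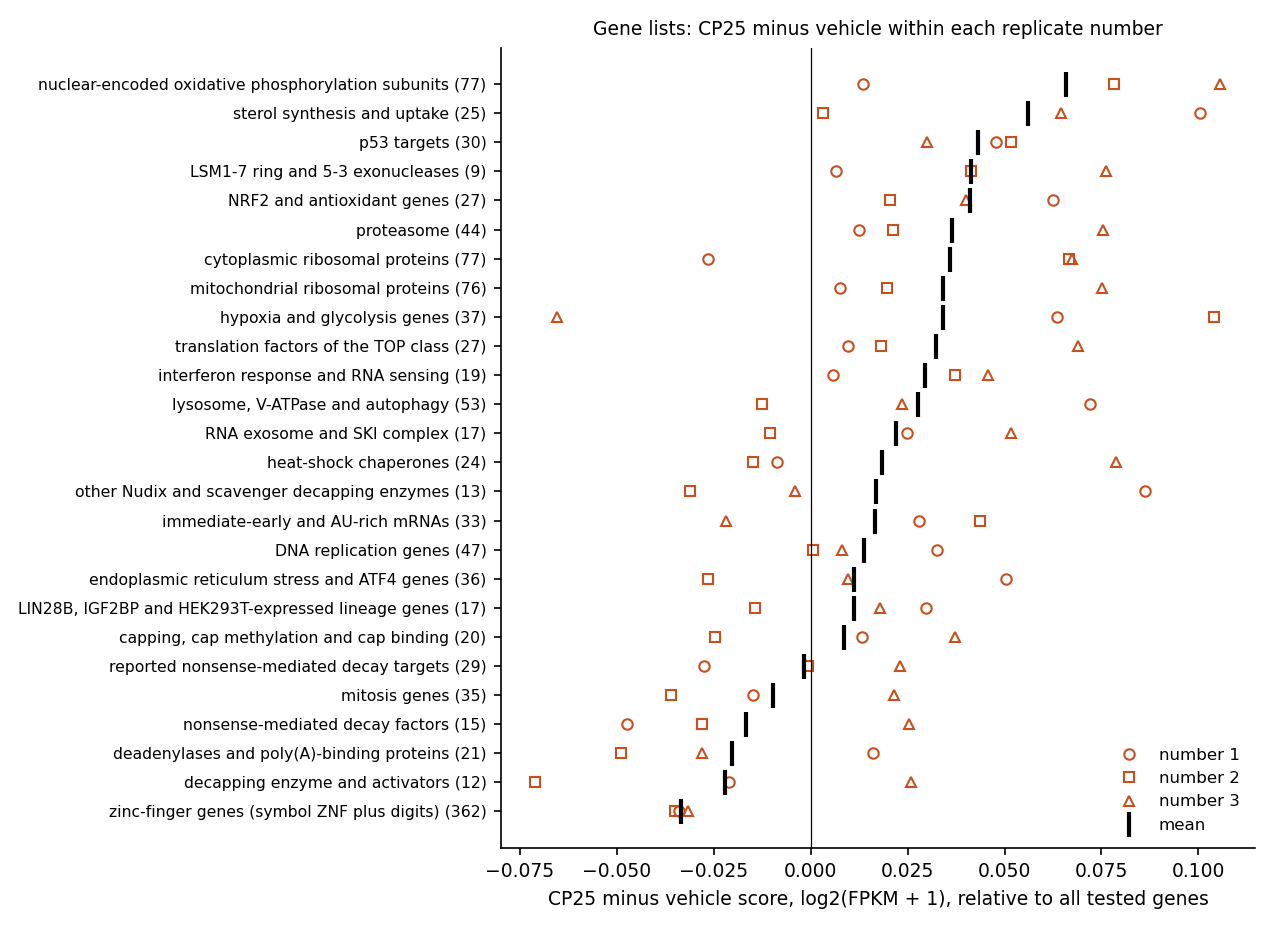
CP25 minus vehicle difference of each list's score (mean log2(FPKM + 1) of its members minus the mean of all tested genes), horizontal axis, within replicate numbers 1, 2 and 3 (markers) with the mean as a bar; the count of measured genes stands beside each list. All differences lie within about 0.1 of 0, and the 3 markers of the zinc-finger genes nearly coincide at about −0.03.

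The highest shares of positive differences stood in oxidative phosphorylation, proteasome and cytoplasmic ribosomal protein genes. Sterol (80%), NRF2 (77.8%) and hypoxia and glycolysis genes (75.7%) came next. Translation factors (74.1%) and mitochondrial ribosomal protein genes (69.7%) lay below those. In the plot of list scores, oxidative phosphorylation had the highest mean difference and sterol genes the next. Of 77 nuclear-encoded subunits of oxidative phosphorylation, 72 were positive with a median of 0.05, beside 47.5% and −0.00 over all genes. The median over all genes also varied with level. It was 0.011 at a mean of 20 FPKM or more, −0.017 at 5 to 20 FPKM and −0.021 at 1 to 5 FPKM. Any part of level in the leans of these lists was not tested. The score of these subunits was higher in CP25 by 0.01, 0.08 and 0.11 in numbers 1, 2 and 3, and the libraries of the groups overlap. NDUFC1, a complex I subunit, had the highest difference and did not overlap, at 87.8, 86.2 and 82.8 FPKM in vehicle and 91.1, 99.0 and 103 FPKM in CP25 (log2 difference 0.19). Without vehicle library 1 the median of the 77 turned to −0.02, and 63 of the 77 genes differed by replicate number. In the 2 h libraries the score differences were −0.09, −0.07 and 0.07. Cytoplasmic ribosomal protein genes (64 of 77 positive, median 0.03), proteasome genes (38 of 44, 0.03), mitochondrial ribosomal protein genes (53 of 76, 0.02) and translation factors (20 of 27, 0.03) leaned the same way, and each of these 4 medians turned negative without vehicle library 1. Of the cytoplasmic ribosomal protein genes, 74 of 77 differed by number.

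Zinc-finger genes, here all symbols of ZNF followed by digits, leaned the other way. Most encode DNA-binding proteins with C2H2 fingers, many of them repressors. Of 472 such genes listed, 362 passed the filter; 110 were positive and 252 negative, with a median of −0.04. Beside this, all genes at 1 to 5 FPKM had a median of −0.021 and those at 5 to 20 FPKM −0.017. Any part of level in the lean was not tested. Their score was lower in CP25 by 0.03, 0.04 and 0.03 within numbers 1, 2 and 3, and the libraries of the groups overlap. The libraries did not overlap for 22 of them with CP25 lower and for 5 with CP25 higher, where all genes gave 2.85% and 1.23%. ZNF577 had the lowest difference (−0.45), at 2.39, 2.08 and 1.81 FPKM in vehicle and 1.60, 1.09 and 1.12 FPKM in CP25. ZNF185, a LIM-domain protein gene despite its symbol, was at 2.26, 2.31 and 2.13 FPKM in vehicle and 2.58, 2.93 and 2.95 FPKM in CP25. In the 2 h libraries 152 of 268 measured members were positive, with a median of 0.01 and score differences of 0.00, 0.03 and −0.03. The count of negative members at 0 h was 227 after median centring and also 227 after quantile normalization. None of the 362 was called, and the list was chosen with earlier results known.

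Metabolic and cell cycle lists completed the set. Of 25 sterol genes 20 were positive (median 0.06), with the demethylating enzyme MSMO1 at 43.3, 47.6 and 45.8 FPKM in vehicle and 49.5, 49.9 and 47.5 FPKM in CP25, which overlap. Of 53 lysosome, V-ATPase and autophagy genes 39 were positive (median 0.02). Of 35 mitosis genes 12 were positive (median −0.00). The kinetochore gene CENPF was at 46.6, 36.5 and 34.3 FPKM in vehicle and 39.4, 33.8 and 31.4 FPKM in CP25, lower within each number and overlapping as groups. Of 47 DNA replication genes 29 were positive (median 0.01).

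The labelled cell line was checked against its markers. Of 18 genes known from HEK293T cells, 17 passed the filter, including LIN28B, the IGF2BP family, VIM and NEFL, and SALL4 did not. Markers of blood (0 of 9), endothelium (0 of 5) and keratinocytes or glands (0 of 5) all averaged below 1 FPKM over the 6 libraries, although CD68, LYZ and MUC1 reached 1.14, 1.15 and 1.30 FPKM in their highest library, and KRT5, KRT14 and KRT1 were at 0 in every library. Of 6 fibroblast markers COL1A1 (3.45 FPKM on average) and COL3A1 (0.996, 1.17 and 1.32 FPKM in vehicle and 1.15, 1.52 and 1.32 FPKM in CP25) passed, and of 8 mature kidney markers LRP2 (2.79 FPKM) did. The summed fibroblast markers ranged from 4.85 to 5.32 FPKM in vehicle and from 4.68 to 5.94 FPKM in CP25, so the groups overlap. Summed blood markers ranged from 1.45 to 3.07 FPKM and from 1.66 to 1.85 FPKM. The most abundant transcripts outside the small RNA class were BCYRN1, a short noncoding RNA of Alu origin (5320 to 8031 FPKM, uncertain because of its many copies), and mRNAs of ribosomal proteins, EEF1A1 and NPM1, and all 10 overlapped between groups.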

How the data were processed

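Poly(A) RNA of HEK293T cells was sequenced in 12 libraries, of which the 6 taken at 0 h (3 CP25, 3 vehicle) are compared. The authors deposited FPKM values per gene and library, with a separate table for 2 h, and a comparison of group means with p-values. Bowtie2 2.2.3 with hg19, Trimmomatic 0.36 and CASAVA 1.8.2 were named, per the submitters' processing notes; which program and annotation gave the FPKM values is not given in the sources used here. Since FPKM is relative to the library's own total, a common shift of all mRNAs cannot be seen, and summed FPKM ranged from 442719 to 502915.

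Genes averaging 1 FPKM or more were taken as log2(FPKM + 1), and CP25 was compared with vehicle in limma 3.58.1 (R 4.3.3; moderated variances with a trend, two-sided, Benjamini-Hochberg over all 12365 genes, threshold 0.05). Depth was estimated from the lowest FPKM steps of genes with a single transcript in GENCODE; 1 FPKM of a 2 kb transcript stands for 26.0 to 43.8 fragments.

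The members, gene lists and tests were chosen with earlier results of these data known. Named were up to 12 genes per direction by adjusted or, failing that, smallest p, the decapping, LSM ring and Nudix lists, EXOSC4, IRF7, MYC, JUN, IER2 and GAPDH, the extremes of each other list and up to 2 of its smallest p, the 10 highest levels, and the 3 largest changes per direction at 5 FPKM or more; small RNA genes, dates, clone names and read-through loci were skipped. Some genes that this rule selects are not reported here. Further genes named with the replicate number, the block, MDM2, HSPA5, GAS5, RPS26 and those below the filter were picked afterwards as examples.

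Same-numbered vehicle and CP25 libraries were checked for pairing by the correlation across genes of their deviations from the group means. Over all genes it was 0.26, −0.01 and 0.12, which misses the rule of all 3 above 0.1. Small RNA genes carried much of that spread. Without these 160 genes the correlation was 0.74, 0.57 and 0.53, against −0.61 to 0.21 between different numbers. Deviations from a group mean sum to 0, so positive values for the same number push those between different numbers below 0. The second range is therefore no separate support for pairing. Leaving out the small RNA genes was decided after seeing the values. The numbers were then treated as pairing the libraries outside small RNA genes, from the data and not from the labels, and both fits are given. Alternatives were the pseudocount, the filter, 2 scalings, small RNA genes left out, the block, and libraries left out.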

Additional observations from a re-analysis of the deposited data

Results flagged for a closer look

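The 25 measured genes of sterol synthesis and uptake had score differences of opposite sign at the 2 times. At 0 h the CP25 minus vehicle difference was positive within each replicate number, 0.10, 0.00 and 0.06 on the log2 scale, with a mean of 0.0560. In the 2 h libraries it was negative within each number, −0.01, −0.02 and −0.05, all near 0. At 2 h 12 of the 25 genes were positive, with a median of −0.005, beside 20 positive at 0 h. Replicate number 2 was close to 0 at 0 h. The difference between the times was not tested, and the tables of the times were normalized separately. Groups of 3 libraries are too small for the outlier check.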

How the results depend on the processing

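The count of genes called at adjusted p 0.05 (0 in limma) stayed 0 with a pseudocount of 0.1, without a filter, with a filter at 5 FPKM, under both scalings, with the replicate block, without small RNA genes, with both of these together, and from the authors' p-values. Leaving out 1 library gave 0 to 4 calls, and leaving out both libraries of number 1, chosen after seeing the data, gave 8; all were small RNA genes with libraries at or near 0 or with a wide spread. The count at an unadjusted p under 0.05 (88) was 319 without a filter, 57 with the filter at 5 FPKM, 857 with the replicate block, 963 with the block and small RNA genes left out, 66 to 203 without 1 library, and 280 and 55 without both libraries of number 1 or of number 3. The filters change how many genes are tested and the libraries left out change the number of samples; otherwise the cause was not tested. The block changed no call. The share of genes whose interval excluded a 1.5-fold change ranged from 88.4%, without both libraries of number 2, to 99.5%, with the block and small RNA genes left out. Of 2834 values for 168 named genes under alternatives, 2815 moved by less than the spread between libraries, 19 moved further, and 0 passed the threshold. Much of that count was fixed in advance. Leaving out 1 library of 3 cannot move a difference further than this spread, and the block or leaving out small RNA genes does not move it. Without vehicle library 1, 38 named genes changed sign. The medians of the decapping, deadenylase, sterol and zinc-finger lists kept their sign in every alternative run, and that of the lysosome list in all but the fit without both libraries of number 1; each of the other lists of 5 or more measured genes changed sign in at least 1 fit, most often without vehicle library 1. Intervals excluded a 1.5-fold change less often at 1 to 5 FPKM than above; the part of depth in this was not tested.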
